A study of Mus musculus with 8 samples.

Results

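The 10 genes described here encode the core of transforming growth factor beta (TGF-beta) signalling outside the cell: the ligands Tgfb1, Tgfb2 and Tgfb3, the receptors Tgfbr1, Tgfbr2 and Tgfbr3, and the latent TGF-beta binding proteins Ltbp1, Ltbp2, Ltbp3 and Ltbp4. They were chosen by name from the deposited table of 22558 genes, which lists them as tgfb1, tgfb2, tgfb3, tgfbr1, tgfbr2, tgfbr3, ltbp1, ltbp2, ltbp3 and ltbp4, and all 10 passed the filter on low counts that left 14847 genes for testing. Levels were measured by RNA-seq in 8 mouse libraries, 2 for each of 4 groups. Adipose, muscle and pancreas FAP+ cells bear FAP, the fibroblast activation protein, a peptidase on the surface of stromal cells, and were sorted from visceral fat, skeletal muscle or pancreas after dissociation. Those of pancreas carry the label of stellate cells. MEFs are embryonic fibroblasts that were sorted as FAP-negative, cultured for 3 passages and sorted again for absence of FAP. The duplicates of a group came from separate experiments, per the design text, and neither strain, age nor sex is stated in the labels. Since MEFs are both cultured and embryonic, the effects of tissue, of culture and of age on any difference from them cannot be told apart.

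TGF-beta is secreted as a dimer held inactive by its own propeptide. In that latent complex it is bound by Ltbp1, Ltbp3 or, more weakly, Ltbp4, which tether it to fibrillin and fibronectin fibres until integrins or proteases release it. Ltbp2 belongs to the same family and binds fibrillin microfibrils but not the latent ligand. Released ligand binds the type II receptor Tgfbr2, which phosphorylates the type I receptor Tgfbr1, which in turn activates Smad2 and Smad3. Betaglycan, the product of Tgfbr3, presents ligand to Tgfbr2 and is needed most for TGF-beta 2. In fibroblasts the pathway is known for driving matrix synthesis and the contractile myofibroblast state.

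The promoters of Ltbp2 and Ltbp4 are printed because these genes had the largest differences between FAP+ cells and MEFs, in opposite directions. RefSeq promoter windows on build GRCm38.p6, reaching from 250 bases before to 50 after a transcript start, matched 8 of the 10 genes with 12 windows. Tgfb3 and Tgfbr3 had no entry. In the lines below, written 5′ to 3′ on the gene's strand, capitals mark CAGAC, the core of the SMAD binding element, or GGGCGG, the core of the GC box bound by Sp1, on either strand (GTCTG and CCGCCC on the other).
Ltbp2, chr12:84876442-84876741, minus strand: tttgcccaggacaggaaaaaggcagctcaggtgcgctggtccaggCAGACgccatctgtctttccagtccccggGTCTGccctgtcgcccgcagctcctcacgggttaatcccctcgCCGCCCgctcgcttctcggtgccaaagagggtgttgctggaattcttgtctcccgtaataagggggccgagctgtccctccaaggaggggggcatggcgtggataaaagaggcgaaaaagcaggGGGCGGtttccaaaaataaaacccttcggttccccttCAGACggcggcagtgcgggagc
Ltbp4, upstream start, chr7:27337563-27337862, minus strand: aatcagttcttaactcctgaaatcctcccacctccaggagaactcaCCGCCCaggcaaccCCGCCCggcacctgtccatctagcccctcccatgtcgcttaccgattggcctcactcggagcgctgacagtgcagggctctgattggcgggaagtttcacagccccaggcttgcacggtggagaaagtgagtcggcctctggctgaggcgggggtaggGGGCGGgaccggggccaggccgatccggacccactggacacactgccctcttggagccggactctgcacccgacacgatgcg
Ltbp4, downstream start, chr7:27333599-27333898, minus strand: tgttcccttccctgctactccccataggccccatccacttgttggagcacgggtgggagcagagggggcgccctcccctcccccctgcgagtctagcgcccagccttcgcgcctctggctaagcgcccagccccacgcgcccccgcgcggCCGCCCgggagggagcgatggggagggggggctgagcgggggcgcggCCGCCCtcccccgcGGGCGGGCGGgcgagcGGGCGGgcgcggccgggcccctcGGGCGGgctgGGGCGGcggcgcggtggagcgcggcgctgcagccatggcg
The Ltbp2 window held 3 copies of CAGAC and 2 of GGGCGG, at 61.0% GC. The upstream Ltbp4 window held 3 copies of GGGCGG at 64.3% GC, and the downstream one held 7, overlapping copies counted separately, at 80.3% GC. Another Ltbp4 window, chr7:27333614-27333913, overlaps the downstream one, held 9 copies of GGGCGG at 81.3% GC and is not printed. None of the 3 Ltbp4 windows held CAGAC. Of all 32851 RefSeq promoter windows of this length, 49.6% held CAGAC and 35.7% held GGGCGG at least 1 time, with a median GC content of 52.7%. These matches are letters in a window and say nothing of which factors bind there.

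Libraries held 15516319 to 27759399 estimated fragments, and all levels below are library-size normalized fragment values (CPM) unless FPKM or RPKM is named. Fap itself was at 27.98 and 34.4 CPM in FAP+ cells of adipose, 88.8 and 107 in those of muscle and 55.4 and 65.6 in those of pancreas, against 2.37 and 0.516 in MEFs, so the libraries follow their labels. The first adipose library stood apart: the replicates correlated across genes with r = 0.929 in adipose and 0.984 to 0.987 in the other groups, and its TMM scaling factor was 0.516, against 0.889 to 1.31 in the other libraries. The members' adipose values against MEFs are therefore given with and without it. Endothelial markers, 7 genes, summed to 455 to 642 CPM in FAP+ cells of adipose, 99.8 to 161 in those of muscle and 65.4 to 76.2 in those of pancreas, against 2.88 to 3.48 in MEFs. In pancreas most of that sum was Tek, at 58.0 and 68.7 CPM, while Pecam1, Cdh5 and Cldn5 were each at 1.41 CPM or less. In muscle most of it was Tek too, at 86.3 and 102 CPM. There Pecam1 was at 4.08 and 20.2 CPM, Cdh5 at 1.47 and 5.96 and Cldn5 at 2.81 and 12.5. Haematopoietic markers summed to at most 14.8 CPM in any library. Of the stellate cell markers in the pancreas libraries, Cygb reached 577 and 838 CPM, but the defining Gfap and Lrat were at or below 0.468 CPM, and Cygb was at 345 to 591 CPM in the adipose and muscle libraries too. In these bulk libraries fewer cells of a type and less RNA per cell cannot be told apart.

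Against MEFs, 4 of the genes passed the test in FAP+ cells of all 3 tissues: Tgfbr2, Tgfbr3 and Ltbp4 were higher and Ltbp2 was lower. By edgeR's quasi-likelihood test, at a Benjamini-Hochberg adjusted p below 0.05 over all 14847 genes, 6 of the 10 genes were called in adipose (4 higher, 2 lower), 5 in muscle (4 higher, 1 lower) and 5 in pancreas (3 higher, 2 lower). With the first adipose library left out, more of the 10 genes were called in muscle and pancreas, and so were more genes over all. In the fit of all 8 libraries 50.1% of tested genes were called in adipose (26.9% higher, 23.2% lower), 43.8% in muscle (23.7% higher, 20.0% lower) and 42.5% in pancreas (23.1% higher, 19.4% lower). The number of calls in the family was thus near the background. Of all calls 53.6% were higher in adipose, 54.2% in muscle and 54.4% in pancreas, against 21.7%, 33.7% and 38.4% by limma on log2(FPKM + 1). The FAP+ and MEF libraries did not overlap for 7 of the 10 genes in adipose, 10 in muscle and 8 in pancreas, where 73.1%, 82.1% and 80.3% of all tested genes did not. The median log2 fold change of the 10 genes was 0.40 in adipose, 0.89 in muscle and 0.37 in pancreas, beside medians of 0.049, 0.030 and 0.018 over all tested genes. The 3 comparisons share the MEF libraries, so their calls are not independent of each other. Tgfbr2, Tgfbr3, Ltbp2 and Ltbp4 passed in all 3 comparisons under each of 19 alternative settings, among them DESeq2, reads recovered from the RPKM table and each library left out. The calls on Tgfb2, Tgfb3 and Ltbp3 did not, as given with each gene.

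**Figure D1:**
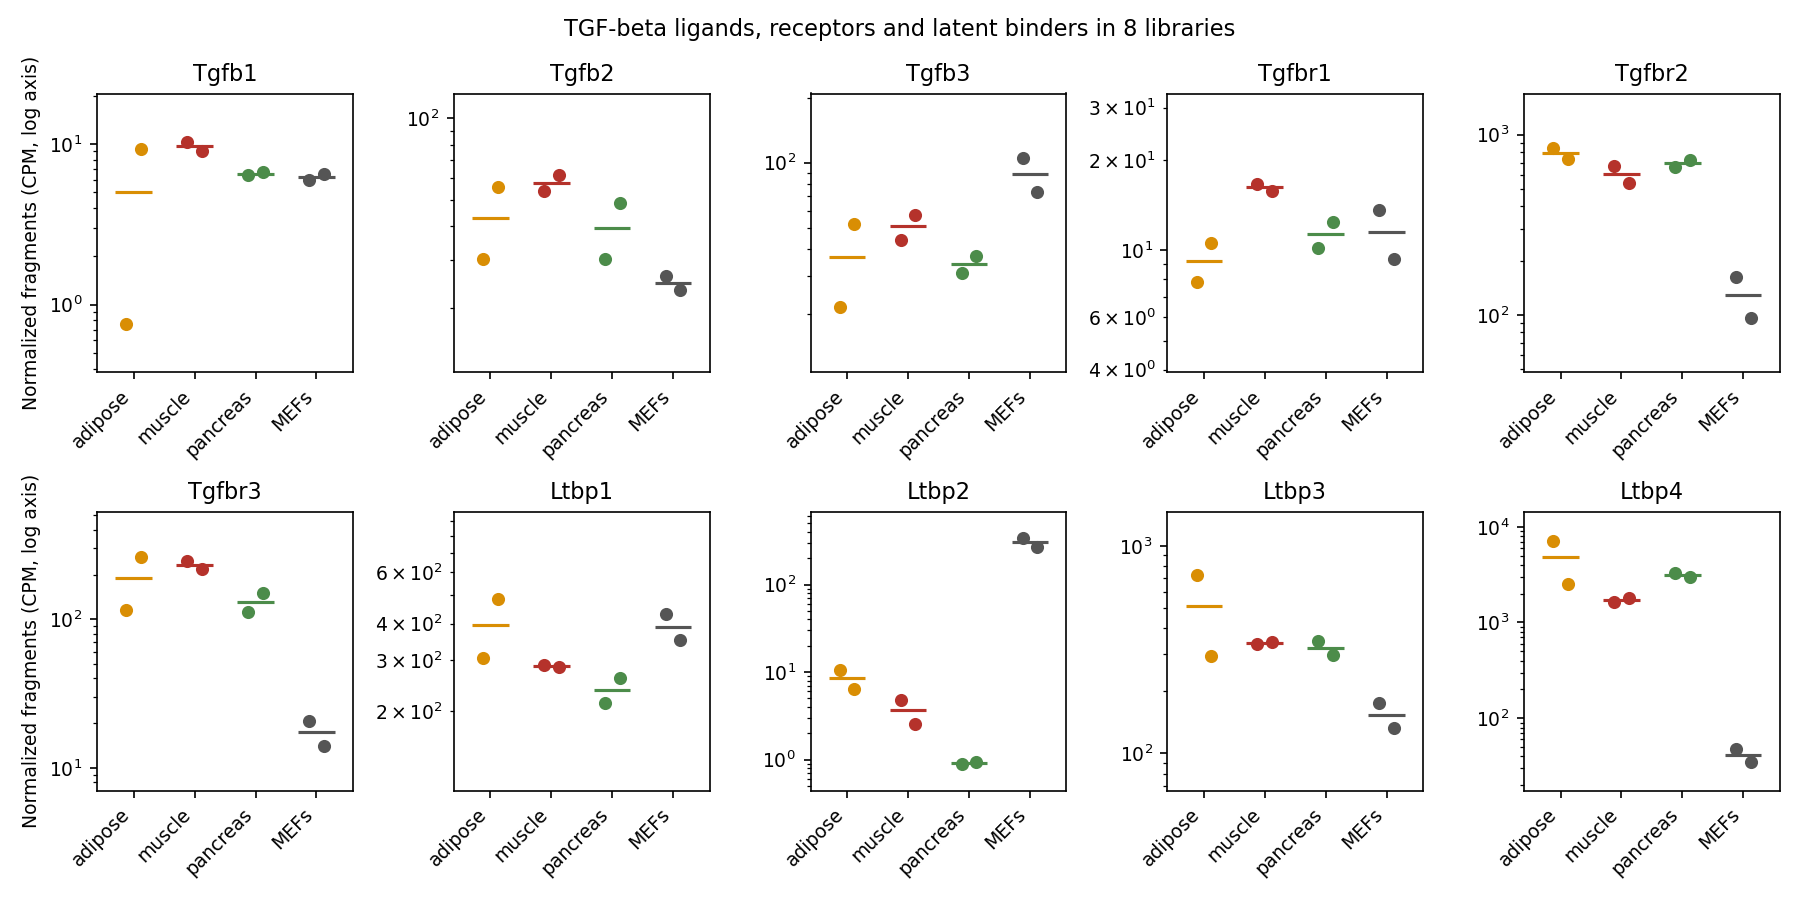
Normalized fragments in CPM on log axes for the 10 genes, with a point per library and a bar at the mean of each group (n = 2); adipose, muscle and pancreas are FAP+ cells. Ltbp4, Tgfbr2 and Tgfbr3 lie above MEFs in all 6 FAP+ libraries and Ltbp2 lies below, while the adipose duplicates of Tgfb1 stand at 0.762 and 9.33 CPM.

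Among the ligands, in the fit of all 8 libraries, Tgfb3 was called lower in adipose and pancreas FAP+ cells than in MEFs. In that fit Tgfb2 was called higher in muscle FAP+ cells, and Tgfb1 passed in no tissue. Tgfb3, the isoform best known from palate and lung development, was at 21.4 and 51.8 CPM in FAP+ cells of adipose, 43.9 and 57.4 in those of muscle and 31.0 and 36.9 in those of pancreas, against 105 and 73.0 in MEFs. Every FAP+ library was below both MEF libraries. The log2 fold change was -1.28 ± 0.43 (SE) in adipose (adjusted p = 0.0386), -0.81 ± 0.42 in muscle (0.155) and -1.39 ± 0.43 in pancreas (0.0328), by edgeR's quasi-likelihood test. Both calls, and the lack of one in muscle, depended on which libraries were in the fit. With only the groups compared the muscle value was -0.77 and passed edgeR's quasi-likelihood test (adjusted p = 0.0285). Without the first or the second adipose library the muscle value was -0.81 or -0.82. Without the first adipose library the adipose value was -0.77 (adjusted p = 0.0654), without the second it was -2.06, and with any muscle, pancreas or MEF library left out the adjusted p was 0.066 to 0.188. The adipose call was also lost with only the groups compared in the fit (adjusted p = 0.129). The pancreas call was lost with any muscle, pancreas or MEF library left out (adjusted p = 0.0625 to 0.174) and by limma on log2(FPKM + 1) or log2(FPKM + 0.1) over all genes (0.0788 and 0.094).

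Tgfb2, the isoform that depends most on betaglycan, was at 30.3 and 55.6 CPM in FAP+ cells of adipose, 53.8 and 61.6 in those of muscle and 30.4 and 48.6 in those of pancreas, against 26.4 and 23.3 in MEFs. No FAP+ library overlapped the MEFs. Only the muscle difference passed the test, with a log2 fold change of 1.22 ± 0.36 (adjusted p = 0.0280); adipose had 0.79 ± 0.36 (0.0991) and pancreas 0.67 ± 0.36 (0.166). In the direct comparisons between tissues Tgfb2 had log2 0.42 in muscle over adipose (adjusted p = 0.494) and -0.55 in pancreas over muscle (0.629). The muscle call was lost with either muscle or either MEF library left out (adjusted p = 0.0923 to 0.143), and by limma on FPKM (log2 0.54 to 0.58, adjusted p = 0.407 to 0.489). Adipose without its first library gave 1.17 (adjusted p = 0.0124). On reads recovered from RPKM, Tgfb2 also passed in adipose (1.495, adjusted p = 0.000604) and pancreas (0.70, 0.0228), and with only the groups compared it passed in pancreas (0.70, 0.0468). Tgfb1, the isoform most studied in fibrosis, was at 0.762 and 9.33 CPM in FAP+ cells of adipose, 10.3 and 9.05 in those of muscle and 6.41 and 6.70 in those of pancreas, against 5.997 and 6.50 in MEFs. The adipose duplicates bracketed all other libraries but 1, and the first of them rested on 10.005 estimated fragments. The log2 fold changes of Tgfb1 were -0.27 ± 0.81 in adipose, 0.63 ± 0.80 in muscle and 0.07 ± 0.80 in pancreas, with adjusted p of 0.795, 0.550 and 0.954. Adipose alone gave 0.58 without its first library (adjusted p = 0.0952) and -3.04 without its second (0.000318); its sign in adipose depends on which duplicate is kept. Without the first adipose library the muscle value of 0.62 passed (adjusted p = 0.0376), and without the second it was 0.63 (0.042).

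The receptors differed among themselves: the ligand-binding type II receptor and betaglycan were several-fold higher in FAP+ cells, and the type I receptor did not pass the test in any tissue. Tgfbr2 was at 847 and 736 CPM in FAP+ cells of adipose, 669 and 538 in those of muscle and 665 and 720 in those of pancreas, against 162 and 96.2 in MEFs. It was 6.13-fold higher in adipose (log2 2.62 ± 0.36 SE, adjusted p = 0.000929), 4.68-fold in muscle (2.23 ± 0.35, 0.00198) and 5.37-fold in pancreas (2.42 ± 0.35, 0.00145). The FAP+ libraries spanned 538 to 847 CPM for Tgfbr2, and their summed endothelial markers ran from 65.4 to 642 CPM. Endothelium also expresses Tgfbr2, and its part in the difference from MEFs was not tested. The adipose value of Tgfbr2 was log2 2.52 without the first adipose library. Tgfbr3 was at 116 and 264 CPM in FAP+ cells of adipose, 248 and 217 in those of muscle and 112 and 149 in those of pancreas, against 20.7 and 14.1 in MEFs. It was 10.9-fold higher in adipose (log2 3.45 ± 0.46 SE, adjusted p = 0.000836), 13.4-fold in muscle (3.74 ± 0.47, 0.000692) and 7.51-fold in pancreas (2.91 ± 0.45, 0.00186). The lowest FAP+ library, pancreas 1, was still far above the higher MEF library. In adipose the log2 value of Tgfbr3 was 3.93 without the first library and 2.73 without the second, and both passed the test.

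Tgfbr1, the kinase that carries the signal into the cell, was low throughout: 7.85 and 10.6 CPM in FAP+ cells of adipose, 16.7 and 15.8 in those of muscle and 10.2 and 12.5 in those of pancreas, against 13.6 and 9.38 in MEFs. Its log2 fold change had a 95% interval of -1.004 to 0.38 in adipose, -0.19 to 1.19 in muscle and -0.71 to 0.66 in pancreas, so these libraries leave room for differences of that size. Without the first adipose library the adipose value was log2 -0.11 (adjusted p = 0.766). On the length-scaled FPKM the order was Tgfbr2, Tgfbr3, Tgfbr1 from high to low in all 8 libraries. On RPKM that order did not hold: Tgfbr3 was above Tgfbr2 in adipose (74.5 ± 11.4 against 47.1 ± 2.93) and muscle (60.2 ± 5.36 against 40.3 ± 5.44), and below it in pancreas (42.1 ± 3.53 against 53.0 ± 3.45) and MEFs (7.26 ± 1.78 against 12.8 ± 4.75), where Tgfbr1 was at 7.19 ± 1.71. Tgfbr2 averaged 68.9 ± 23.5 FPKM in adipose, 72.1 ± 8.80 in FAP+ cells of muscle and 92.3 ± 11.98 in those of pancreas, against 24.2 ± 9.86 in MEFs (SD, n = 2 each). Tgfbr3 averaged 29.7 ± 26.1, 43.6 ± 2.72 and 27.4 ± 7.48 FPKM in the same tissues, against 5.10 ± 1.63 in MEFs, and Tgfbr1 averaged 1.43 ± 0.88, 3.27 ± 0.0189 and 2.53 ± 0.55 FPKM, against 3.604 ± 1.12 in MEFs.

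The latent binders held the widest differences of the family. Ltbp4 had the highest FPKM of the 10 genes in every FAP+ library, at 177 to 402 FPKM. On RPKM it was highest in the muscle and pancreas libraries, while in adipose Tgfbr3 was above it, at 66.5 and 82.6 RPKM against 61.0 and 74.2 for Ltbp4. In normalized fragments it was at 7130 and 2521 CPM in FAP+ cells of adipose, 1654 and 1820 in those of muscle and 3300 and 2955 in those of pancreas, against 47.3 and 35.2 in MEFs. By FPKM it ranked between 190 and 391 of 22558 genes in the FAP+ libraries, and at 6298 and 7025 in MEFs. It was 117-fold higher in adipose (log2 6.87 ± 0.63 SE, adjusted p = 0.000168), 42.1-fold in muscle (5.40 ± 0.59, 0.000398) and 75.8-fold in pancreas (6.24 ± 0.62, 0.000259). Without the first adipose library the adipose value was log2 5.94, and without the second 7.42. Ltbp4 protein is known for elastic fibre assembly in lung and for a weak hold on the latent ligand.

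Ltbp2 ran the other way. It was at 10.4 and 6.45 CPM in FAP+ cells of adipose, 4.78 and 2.57 in those of muscle and 0.886 and 0.935 in those of pancreas, against 337 and 271 in MEFs. In normalized fragments no group overlapped another. Adipose was highest of the FAP+ cells, then muscle, then pancreas, where Ltbp2 rested on 17.2 and 18.4 estimated fragments. On RPKM adipose and muscle overlapped, at 0.471 and 0.737 against 0.772 and 0.432, and pancreas was at 0.124 and 0.202. The same edgeR test on recovered reads gave log2 -0.17 in muscle over adipose (adjusted p = 0.757). Against MEFs Ltbp2 was 36.2-fold lower in adipose (log2 -5.18 ± 0.43 SE, adjusted p = 0.000107), 83.3-fold in muscle (-6.38 ± 0.46, 7.64e-05) and 332-fold in pancreas (-8.38 ± 0.51, 5.06e-05). The adipose value was log2 -5.55 when the first adipose library was left out. An antisense gene, D030025P21Rik, shares 764 exon bases with Ltbp2, and no source used here says whether the counting used strand, so reads of the pair cannot be told apart. The same holds for Tgfb2 and Tgfb3, which share 124 to 257 exon bases with predicted genes on the opposite strand. A predicted gene on the same strand as Tgfbr3 shares 297 exon bases with it, where reads could be counted for either.

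Ltbp3, known for its role in bone and teeth, was at 727 and 295 CPM in FAP+ cells of adipose, 337 and 345 in those of muscle and 347 and 298 in those of pancreas, against 174 and 133 in MEFs. All 6 FAP+ libraries were above both MEF libraries. The test passed in adipose (log2 1.74 ± 0.44, adjusted p = 0.0133) and missed in muscle (1.15 ± 0.43, 0.0616) and pancreas (1.07 ± 0.43, 0.0781). The adipose value was 0.95 without the first library (adjusted p = 0.0135) and 2.23 without the second, and the call was lost without either MEF library (0.0571 and 0.0878), with only the groups compared (0.0594) and by limma on FPKM (log2 0.47 to 0.48, adjusted p = 0.182 to 0.232). With either adipose library left out, muscle and pancreas passed at unchanged size (adjusted p = 0.00214 to 0.00381). Ltbp1, the binder best studied as a carrier of latent TGF-beta 1, was at 305 and 485 CPM in FAP+ cells of adipose, 288 and 283 in those of muscle and 213 and 260 in those of pancreas, against 430 and 351 in MEFs. Muscle and pancreas lay below both MEF libraries and adipose straddled them. Its log2 fold change had a 95% interval of -0.72 to 0.75 in adipose, -1.19 to 0.29 in muscle and -1.46 to 0.02 in pancreas, and the pancreas value of -0.73 passed without either adipose library (adjusted p = 0.016 and 0.0179). The adipose value without the first adipose library was 0.32 (adjusted p = 0.310).

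**Figure D2:**
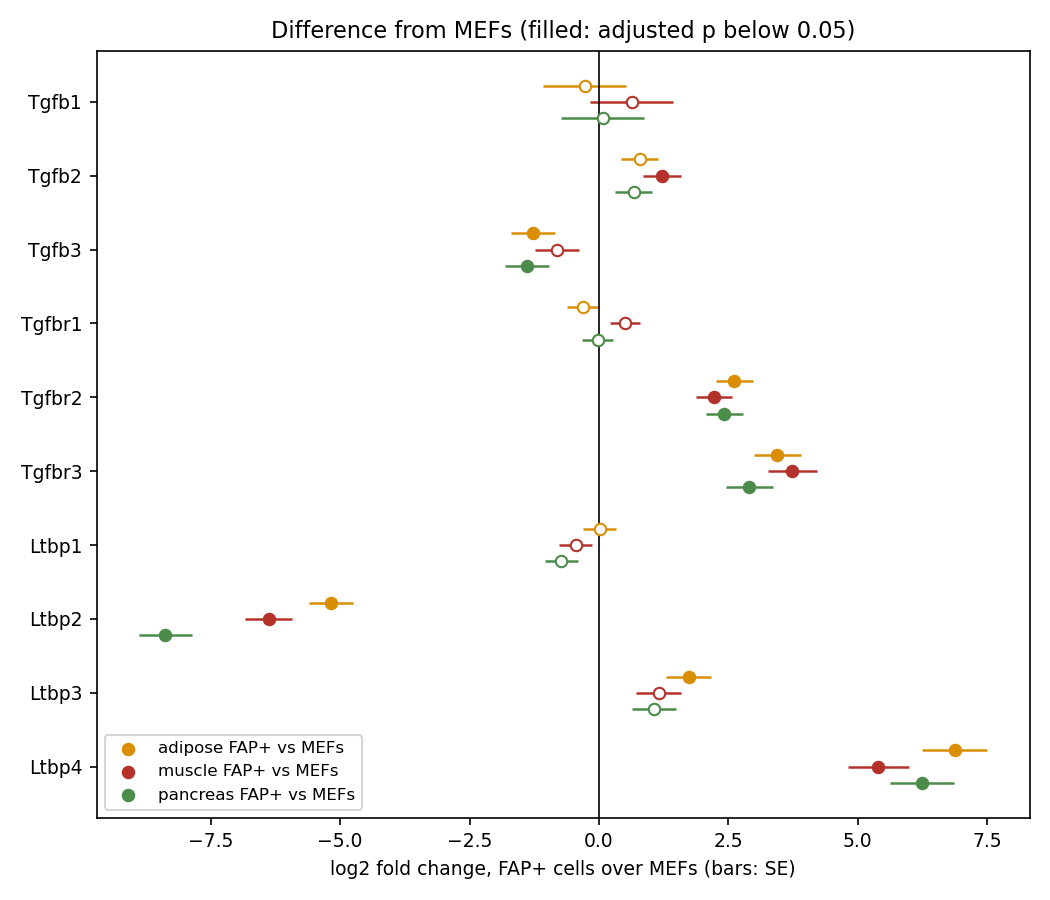
Log2 fold change of FAP+ cells of each tissue over MEFs for the 10 genes. Bars are 1 SE derived from the F statistic of edgeR's quasi-likelihood test, and filled points have an adjusted p below 0.05. Tgfbr2, Tgfbr3, Ltbp2 and Ltbp4 are filled in all 3 tissues, from -8.38 for Ltbp2 in pancreas to 6.87 for Ltbp4 in adipose.

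Per transcript length, the leading latent binder was Ltbp4 in FAP+ cells and Ltbp2 in MEFs. Ltbp4 was 64.0 to 80.4% of the summed Ltbp FPKM in the 6 FAP+ libraries, against 3.65 and 3.42% in MEFs. Ltbp2 was 0.0338 to 0.291% in FAP+ libraries, against 41.0 and 41.6% in MEFs, and Ltbp1 was 2.93 to 11.7%, against 28.3 and 29.1%. Ltbp3 took 15.8 to 26.2% in FAP+ libraries and 27.0 and 25.9% in MEFs. On RPKM Ltbp1 took 21.8 and 21.7% in adipose, 12.5 and 10.97% in muscle and 8.33 and 8.07% in pancreas libraries, against 25.9 and 28.2% in MEFs. Ltbp3 by RPKM took 12.7 and 21.4% in adipose, 34.4 and 34.7% in muscle and 22.8 and 23.1% in pancreas libraries, against 22.003 and 20.3% in MEFs, so its order against MEFs differed between the tables. Among the ligands, Tgfb3 was 44.2 to 49.4% of the FPKM sum in FAP+ libraries and 78.6 and 72.9% in MEFs, and Tgfb2 was 34.5 to 48.9%, against 14.2 and 16.7%. Tgfb1 was 2.78 to 16.9% in FAP+ libraries and 7.27 and 10.5% in MEFs. On RPKM the leading binder was the same in each library, with Ltbp4 at 52.4 to 68.8% in FAP+ libraries and Ltbp2 at 50.3 and 49.9% in MEFs, but Tgfb2 took 46.4 to 79.5% and Tgfb3 18.8 to 44.3% of the ligand sum in FAP+ libraries, against 20.3 and 25.0% for Tgfb2 and 74.8 and 67.9% for Tgfb3 in MEFs. The summed binders stood at 65.0 and 10.8 times the summed ligands by FPKM in adipose, 8.47 and 7.72 in FAP+ cells of muscle and 21.5 and 14.9 in those of pancreas, against 3.16 and 3.34 in MEFs. By RPKM these ratios were 3.48 and 2.95, 3.31 and 3.08, and 5.65 and 5.42 in the 3 tissues, against 1.99 and 2.01. The amplification used copies RNA from its poly(A) tail, so values of different genes depend on how near the 3′ end their reads fall.

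**Figure D3:**
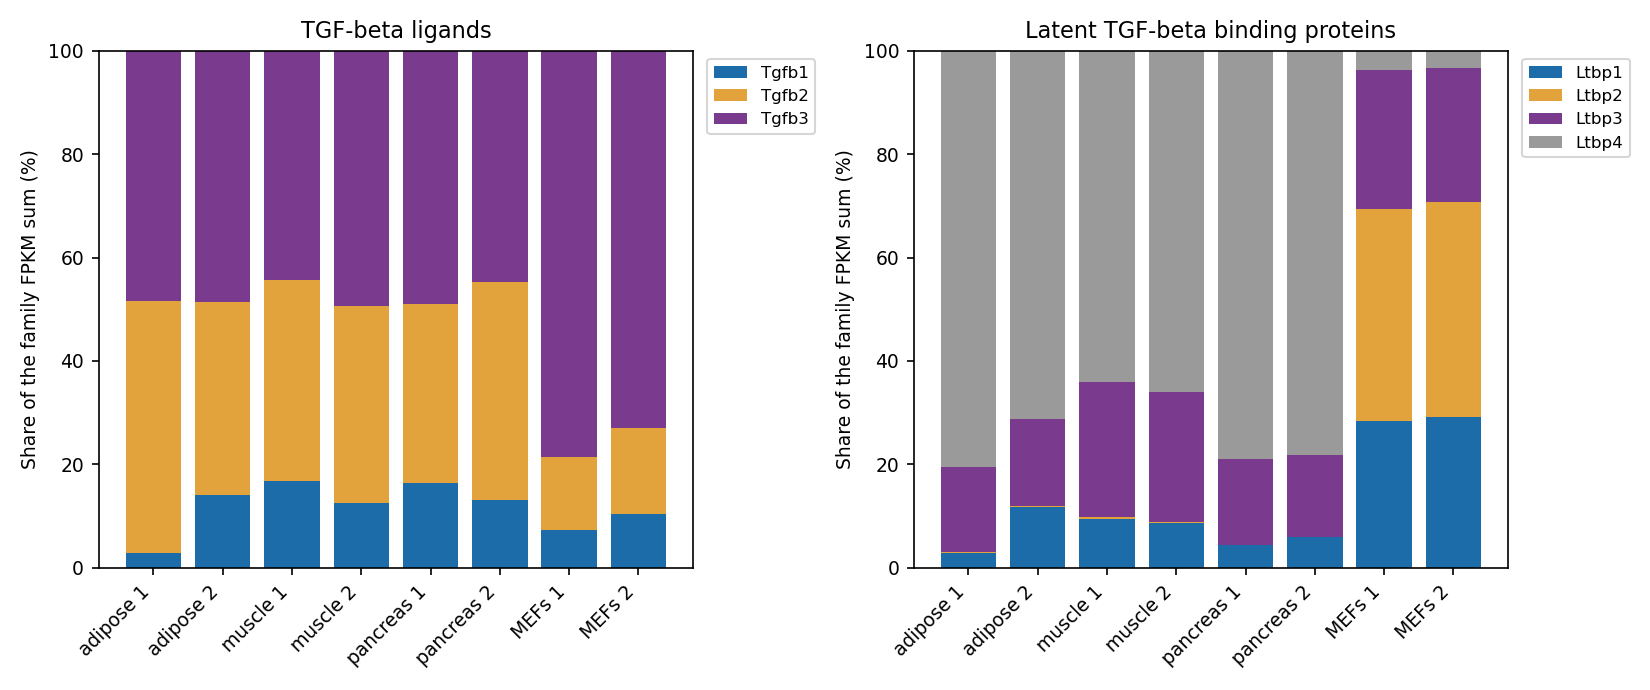
Share of each gene in the summed FPKM of the TGF-beta ligands (left) and of the latent binders (right) in the 8 libraries, in percent. Ltbp4 fills 64.0 to 80.4% of the binder bar in FAP+ libraries and Ltbp2 and Ltbp1 take 41.0 and 28.3% in the first MEF library.

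Between the FAP+ cells of different tissues only Ltbp2 passed the test. It was lower in pancreas than in adipose (log2 -3.20 ± 0.43, adjusted p = 0.00621) and than in muscle (-2.00 ± 0.42, adjusted p = 0.0480), by edgeR's quasi-likelihood test. In muscle over adipose it was -1.20 ± 0.38 (adjusted p = 0.113). With the first adipose library left out it was -2.82 in pancreas over adipose (adjusted p = 0.00475) and -0.85 in muscle over adipose (0.207). Thus 1 of the 10 genes was called in pancreas over adipose, where 9.05% of all tested genes were (3.32% higher, 5.73% lower), and 1 in pancreas over muscle, where 3.67% were (1.54% higher, 2.14% lower). In muscle over adipose none of the 10 was called, where 6.12% of all genes were (2.34% higher, 3.78% lower). An unadjusted edgeR p below 0.05 was found for 3 of the 10, beside 3564 of 14847 genes. DESeq2 called 2 of the 10, beside 1937 of 21643 genes. Libraries did not overlap for 5 of the 10 genes in muscle over adipose, 3 in pancreas over adipose and 8 in pancreas over muscle, beside 50.7%, 49.1% and 55.5% of all tested genes. The call over muscle was lost with any muscle, pancreas or MEF library left out (adjusted p = 0.0904 to 0.351) and held without either adipose library, and that over adipose was lost without either pancreas library (0.0934 and 0.0879).

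The other members lay within log2 -1.47 and 0.91 of each other between tissues. In normalized fragments Ltbp4 ran adipose, pancreas, muscle from high to low, but the adipose duplicates spanned the pancreas ones. None of its differences passed: -1.47 ± 0.50 in muscle over adipose (adjusted p = 0.134), -0.63 ± 0.49 in pancreas over adipose (0.465) and 0.85 ± 0.49 in pancreas over muscle (0.550). By RPKM adipose, at 61.0 and 74.2, overlapped muscle, at 65.5 and 76.2, and lay below pancreas, at 116 and 139. The same edgeR test on recovered reads gave log2 -0.11 in muscle over adipose (adjusted p = 0.794). It gave 0.55 in pancreas over adipose (0.152) and 0.66 in pancreas over muscle (0.232). Without the second adipose library, which leaves the library that stood apart, Ltbp4 passed in muscle over adipose (-2.03, adjusted p = 0.00149) and in pancreas over adipose (-1.18, 0.0123). Without the first, the values were -0.55 (adjusted p = 0.252) and 0.30 (0.4998), so the place of adipose in this order depends on that library. The number of genes called in muscle over adipose was 7 of 10 without the second adipose library and 0 without the first. In pancreas over adipose it was 4 without the second and 2 without the first. Over all genes the calls moved likewise, to 5410 without the second and 1022 without the first in muscle over adipose, and to 5077 and 1724 in pancreas over adipose. Among FAP+ cells Tgfbr2 spanned 538 to 847 CPM and Tgfbr3 112 to 264 CPM, with all tissue differences of Tgfbr2 between log2 -0.39 and 0.20 and those of Tgfbr3 between -0.83 and 0.29.

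Other genes of the pathway were grouped by role in 5 lists. Without the first adipose library, the calls in adipose over MEFs were 2 higher and 3 lower among transducers, 2 and 1 among negative regulators, 7 and 2 among processing and activation genes, 8 and 2 among matrix partners and 1 and 9 among responsive genes, and the counts with all libraries follow. These lists are to be read beside the 26.9% of all tested genes that were higher and 23.2% that were lower in adipose, 23.7% and 20.0% in muscle and 23.1% and 19.4% in pancreas. Of the genes named in the lists, the adipose value without that library was log2 5.09 for Acvrl1, 2.88 for Eng, -0.89 for Smad2, 1.27 for Ski and -1.57 for Smad6. It was 4.37 for Tgm2, 2.75 for Bmp1, 9.39 for Dcn, 7.27 for Mfap5 and 4.11 for Eln. It was -4.65 for Acta2, -4.16 for Tagln and -6.80 for Cnn1, and each of these genes passed the test there.Of 8 transducers, 2 were higher and 3 lower in adipose FAP+ cells than in MEFs, 3 higher and 1 lower in muscle, and 3 higher and 1 lower in pancreas. Acvrl1, a type I receptor for BMP9 that can also pair with Tgfbr2, averaged 198 ± 62.0 CPM in adipose, 109 ± 11.8 in FAP+ cells of muscle and 196 ± 21.2 in those of pancreas, against 4.54 ± 0.36 in MEFs (SD, n = 2 each). Eng (endoglin), its co-receptor and a relative of betaglycan, averaged 361 ± 105, 387 ± 108 and 852 ± 5.70 CPM, against 59.1 ± 6.72 in MEFs. The log2 fold changes of Acvrl1 were 5.45, 4.59 and 5.43 (adjusted p = 4.74e-05, 8.85e-05 and 6.04e-05), and those of Eng were 2.61, 2.71 and 3.85 (0.000921, 0.000865 and 0.000245). Both genes are also strongly expressed by endothelium. Of 7 endothelial markers, adipose had 7 called higher than MEFs, muscle 6 and pancreas 4. Those of pancreas were Tek, Kdr, Pecam1 and Cldn5, with Pecam1 and Cldn5 at 1.41 CPM or less. Cdh5, Tie1 and Emcn were not called there. Emcn lay below both MEF libraries, at 0.417 and 0.104 CPM against 1.71 and 0.880. The part of endothelium in the result was not tested. Eng was highest in pancreas. The summed endothelial markers there were at 65.4 and 76.2 CPM, most of it Tek. Smad3, which carries the signal to the nucleus, was higher in pancreas (74.0 ± 4.08 against 25.6 ± 4.69 CPM in MEFs, log2 1.53, adjusted p = 0.00237). In adipose (41.7 and 37.9 CPM) and muscle (41.5 and 48.9) it also lay above both MEF libraries, at 28.9 and 22.3. Smad2 was lower in adipose (9.23 ± 4.43 against 23.0 ± 3.53 CPM, log2 -1.31, adjusted p = 0.0171), a call lost without the first MEF library. Its muscle (12.7 and 13.4 CPM) and pancreas (10.9 and 11.2) libraries were also below both MEF libraries, at 25.5 and 20.6. The total of 5 transducers called in adipose was 3 without either muscle library or the second MEF library and 2 without the first, and the 4 called in muscle were 2 without any muscle, pancreas or MEF library.

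Of 11 negative regulators, 3 were higher and 1 lower in adipose FAP+ cells, 3 higher and 3 lower in muscle and 1 higher and 3 lower in pancreas. Ski, a nuclear corepressor of Smad complexes, averaged 160 ± 21.6 CPM in adipose FAP+ cells, 198 ± 0.79 in those of muscle and 172 ± 7.496 in those of pancreas, against 72.8 ± 1.68 in MEFs, with log2 fold changes of 1.13, 1.44 and 1.24 (adjusted p = 0.00718, 0.00286 and 0.00569); the adipose value was -0.0039 by limma on log2(FPKM + 0.1), and that call was lost without the first MEF library. Smad6, an inhibitory Smad that acts mostly on BMP signals, averaged 10.2 ± 9.73, 14.0 ± 0.77 and 13.0 ± 1.11 CPM, against 50.6 ± 10.2, with log2 fold changes of -2.30, -1.85 and -1.96 (0.0189, 0.0436 and 0.0369). The Smad6 call was lost in adipose without either MEF library and in muscle and pancreas without any muscle, pancreas or MEF library, at an adjusted p of up to 0.187. Tgif1, a corepressor, was lower in muscle (log2 -1.23, adjusted p = 0.0115) and pancreas (-2.26, 0.000928), and the muscle call was lost without the second muscle or second MEF library. Leaving out each library gave 0 to 4 calls in adipose, the 0 without the first MEF library, with 2 without either muscle library and 1 without the second MEF library. It gave 1 to 8 calls in muscle, the 8 without either adipose library and the 1 without the second MEF library, with 2 or 3 without each of the others. It gave 2 to 5 in pancreas, with 2 without any muscle or pancreas library or the second MEF library.

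Of 14 tested genes that process or activate latent TGF-beta, 6 were higher and 2 lower in adipose FAP+ cells, 8 higher and 3 lower in muscle and 8 higher and 3 lower in pancreas, and Itgb8 was below the filter. Tgm2, the transglutaminase that crosslinks the latent complex to matrix, averaged 285 ± 154, 67.9 ± 14.2 and 94.6 ± 10.7 CPM in adipose, muscle and pancreas, against 8.50 ± 1.38 in MEFs, with log2 fold changes of 5.07, 3.00 and 3.48 (adjusted p = 0.000179, 0.00131 and 0.00076). Bmp1, a protease that cleaves Ltbp1 as well as procollagens, averaged 917 ± 52.2, 1104 ± 68.6 and 806 ± 28.6 CPM, against 132 ± 37.1, with log2 fold changes of 2.80, 3.07 and 2.61 (0.000493, 0.000387 and 0.000725). Thbs1, a matrix protein that activates latent TGF-beta, was lower in muscle at 184 ± 62.2 against 2030 ± 250 CPM (log2 -3.46, adjusted p = 0.000735). Its adipose (759 and 626 CPM) and pancreas (293 and 525) libraries were also below both MEF libraries, at 2207 and 1853. The 11 calls in muscle were 6 without either muscle library and 7 without the first MEF library, and the 11 in pancreas were 6 without the first pancreas library and 7 without either MEF library. Bmp1 and Tgm2 in all 3 tissues and Thbs1 in muscle passed under all 19 alternatives.

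Of 14 matrix partners of the latent binders, 8 were higher and 2 lower in adipose FAP+ cells, 8 higher and 4 lower in muscle and 7 higher and 3 lower in pancreas. Dcn (decorin), a small proteoglycan that binds TGF-beta, averaged 19533 ± 3187, 17256 ± 1031 and 11888 ± 1142 CPM in adipose, muscle and pancreas, against 32.7 ± 14.1 in MEFs, with log2 fold changes of 9.22, 9.05 and 8.51 (adjusted p = 4.52e-05, 6.16e-05 and 6.36e-05). Mfap5, a microfibril protein, averaged 555 ± 39.5, 763 ± 164 and 437 ± 106 CPM, against 3.77 ± 0.35, with log2 fold changes of 7.20, 7.66 and 6.85 (3.4e-05, 4.56e-05 and 4.83e-05). Eln (elastin), whose fibres need Ltbp4, was at 211 ± 7.96 CPM in adipose, against 12.03 ± 6.23 in MEFs (log2 4.13, adjusted p = 0.000267). It was above both MEF libraries, at 16.4 and 7.62 CPM, in muscle (114 and 93.0) and pancreas (298 and 354) too. Fbn2, a fibrillin, was higher in pancreas than in muscle FAP+ cells, at 76.2 ± 18.1 against 2.25 ± 0.21 CPM (log2 5.07, adjusted p = 0.00129), and that call held under all 19 alternatives. Without the second MEF library 6 partners were called in adipose and 6 in muscle, and without the first or second muscle library 6 and 7 were called in muscle.

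Of 14 genes known to respond to TGF-beta in fibroblasts, 2 were higher and 7 lower in adipose FAP+ cells, 2 higher and 9 lower in muscle and 0 higher and 10 lower in pancreas. The median log2 fold change of this list was -1.19, -1.72 and -2.24 in the 3 tissues, the lowest of the 5 lists. The collagen genes of the list had positive values. By edgeR's quasi-likelihood test, Col1a2 was higher in adipose (log2 1.62, adjusted p = 0.0084) and muscle (1.88, 0.00504). In pancreas Col1a2 was at 0.83 (0.0975). Col1a1 was higher in adipose (2.97, 0.0233), where its libraries stood far apart, at 14824 and 1765 CPM. Col1a1 did not pass in muscle (1.07, 0.313) or pancreas (0.22, 0.843). The largest changes were in genes of the contractile apparatus, which were lower. Acta2 (smooth muscle actin) averaged 49.7 ± 0.96, 16.2 ± 4.90 and 16.4 ± 4.49 CPM in adipose, muscle and pancreas, against 1271 ± 154 in MEFs, with log2 fold changes of -4.68, -6.29 and -6.28 (adjusted p = 0.000107, 6.31e-05 and 6.15e-05). Tagln averaged 17.1 ± 13.6, 10.4 ± 1.36 and 10.3 ± 1.68 CPM, against 481 ± 22.9, and Cnn1 averaged 0.642 ± 0.28, 0.513 ± 0.0032 and 0.416 ± 0.0745 CPM, against 50.4 ± 0.89. These genes are also markers of mural cells and of cultured fibroblasts, and the 5 mural markers summed to 66.8 to 101 CPM in FAP+ libraries, against 124 to 144 CPM in MEFs. Cspg4 and Mcam made up most of the MEF sum, and 3 of the 5 were called higher and 2 lower in adipose, 2 higher and 1 lower in muscle and 2 higher and 1 lower in pancreas. Their part in the result was not tested. The muscle count of 11 was 6 without the second muscle library and 7 without the second MEF library. Between tissues Tgfbi, which encodes an adhesive matrix protein, was lower in pancreas than in muscle (41.6 ± 6.53 against 346 ± 54.4 CPM, log2 -3.06, adjusted p = 0.00583), lost without the second muscle or either pancreas library, at an adjusted p of up to 0.0917.

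**Figure D4:**
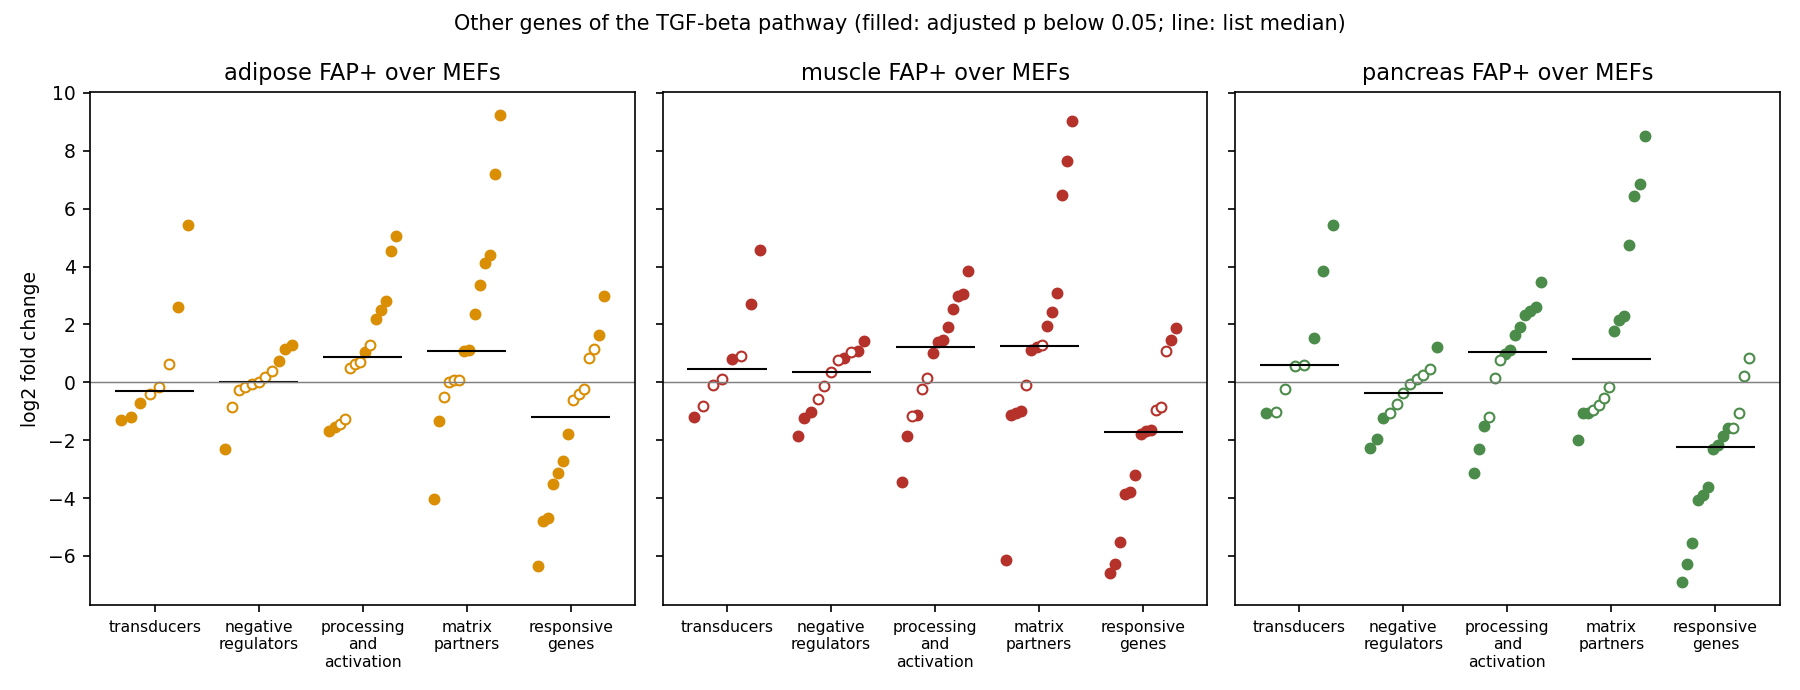
Log2 fold change of FAP+ cells over MEFs for the tested genes of 5 lists of the TGF-beta pathway, with a point per gene (filled where the adjusted p is below 0.05) and a line at the median of the list. The responsive genes have medians of -1.19, -1.72 and -2.24, and Dcn is the highest point of the matrix partners at 9.22, 9.05 and 8.51.

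The authors' bias-adjusted FPKM and their RPKM did not give the same levels for these genes, and most of all in the first adipose library. There Ltbp3 and Ltbp4 had FPKM 6.92 and 6.58 times their RPKM, while Tgfbr1, Tgfbr3 and Tgfb2 had 0.121, 0.169 and 0.176 times, beside a median of 0.710 over 8050 genes. In the other 7 libraries the ratio was 1.58 to 2.23 for Ltbp3, 2.67 to 3.61 for Ltbp4 and 0.559 to 0.738 for Tgfbr3, with medians over all genes of 0.945 to 1.08. Ltbp3 in adipose was above MEFs by FPKM, at 72.5 ± 13.7 against 52.4 ± 12.8, and below them by RPKM, at 20.0 ± 11.5 against 26.1 ± 6.63 (SD, n = 2 each). On whole reads recovered from the RPKM values, the log2 fold change of Ltbp3 in adipose was 0.32 (adjusted p = 0.420). On recovered reads Ltbp4 was log2 5.77, 5.66 and 6.33 above MEFs in adipose, muscle and pancreas, Ltbp2 was -5.93, -6.11 and -8.17, Tgfbr2 was 2.65, 2.24 and 2.45 and Tgfbr3 was 4.11, 3.63 and 2.93.

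**Figure D5:**
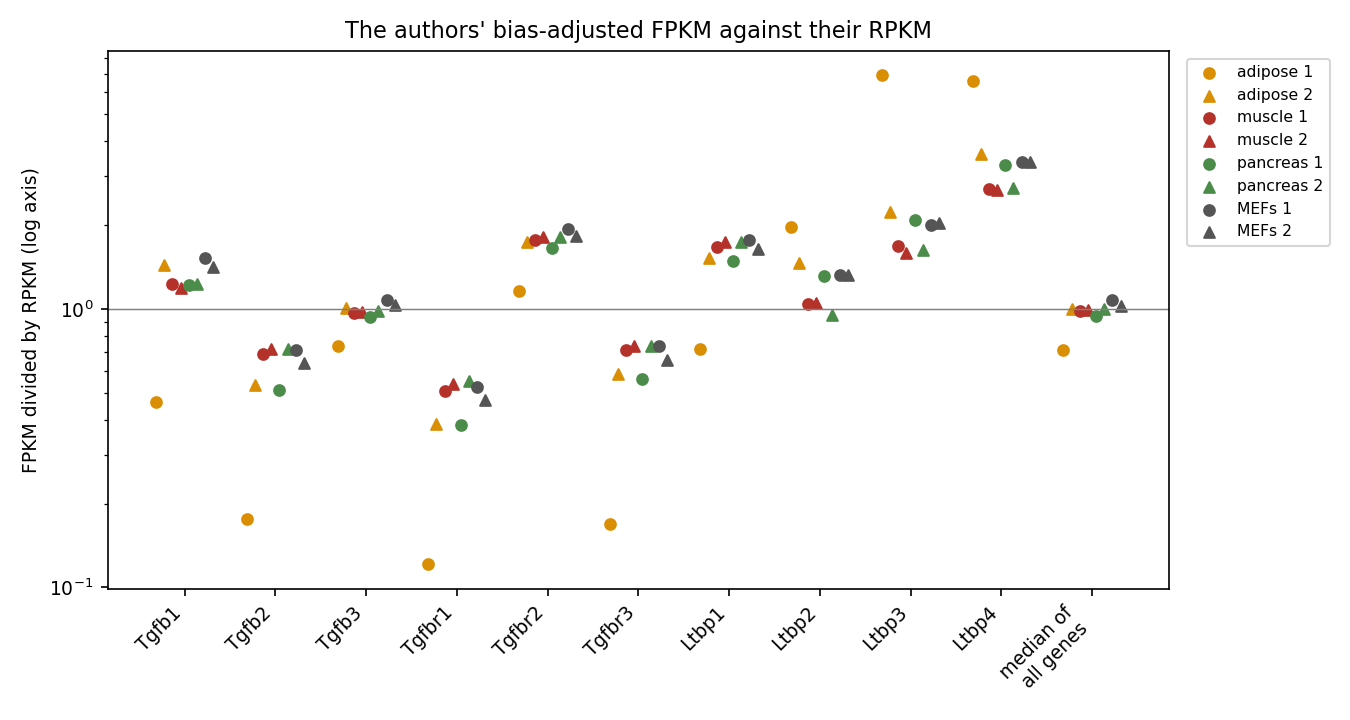
Ratio of the authors' bias-adjusted FPKM to their RPKM on a log axis, for the 10 genes and as the median over 8050 genes, in each of the 8 libraries. The first adipose library lies apart from the other 7, at 6.92 for Ltbp3 and 0.121 for Tgfbr1.

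For the member of each role with the widest range of group mean log2 CPM, the 3 genes of most like pattern were found by the root mean square difference of centred log2 CPM over the 8 libraries, among 7791 genes. Among the ligands that was Tgfb1, with a range of 1.53 against 1.38 for Tgfb3, and its range rests on the first adipose library at 0.762 CPM. Tgfb1 was nearest to Srebf2 at 0.22, Trpc4ap at 0.30 and Aph1a at 0.34, all low in the first adipose library: Srebf2 had 5.87 and 51.5 CPM in the adipose duplicates. Tgfbr3 was nearest to Itga9 at 0.19, Thbs3 at 0.23 and Tmod2 at 0.25, with Itga9 at 54.5 to 115 CPM in FAP+ libraries and 8.25 and 5.37 in MEFs. Ltbp2 was nearest to Il1rl1 at 0.50, Cbr2 at 0.63 and Birc5 at 0.71, with Il1rl1 at 0.208 to 3.38 CPM in FAP+ libraries and 213 and 196 in MEFs.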

How the data were processed

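RNA of 8 mouse libraries was amplified with MessageAmp, which copies from the poly(A) tail, per the labels' protocols. The authors deposited bias-adjusted estimated counts of fragments, FPKM made the same way and, in another table, RPKM, per the file headers. Tools listed without version or role in the submitters' processing notes are edgeR, HTSeq, TopHat2 and Bowtie2, and the listed build is mm9. The bias-adjustment program is not known from any source at hand. Another 6 columns were not used.

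Estimated counts as deposited were rounded and tested with edgeR 4.0.16 (R 4.3.3): TMM scaling, filterByExpr, 1 quasi-likelihood fit over all 8 libraries with 4 residual degrees of freedom, and Benjamini-Hochberg adjustment over 14847 genes in each of 6 comparisons at 0.05. Common biological variation was 33.2%. Normalized CPM uses TMM library sizes. A floor of 3 fragments corresponds to 0.0900 to 0.229 CPM and covers counting error only. Alternatives were DESeq2 1.42.0, limma 3.58.1 on log2(FPKM + 1) or log2(FPKM + 0.1), RLE and upper-quartile scaling, other filters, a replicate block, only the groups compared, each library left out, and the same edgeR test on whole reads recovered from the RPKM steps for 21901 of 22609 genes (tolerance 0.01, totals 9497145 to 16807757). Scripts were tested on simulated data. Replicate numbers were not used as a pairing in the main fit. Chi-square values per gene of 27.7 to 512 between duplicates show no library deposited as a copy. From each pathway list and comparison the called genes eligible for naming were the 3 of largest absolute log2 change with 10 CPM or more in both libraries of the higher group. The 10 members and all lists were chosen with earlier results of these data known. Promoters and exon overlaps are from RefSeq and GENCODE on GRCm38, not the build of the reads, and served for sequence and names only. Exon overlaps of the members are not all reported here.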

Additional observations from a re-analysis of the deposited data

Results flagged for a closer look

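Ltbp2 differed between FAP+ cells of different tissues when these were compared directly, in addition to its difference from MEFs. In pancreas over adipose its log2 fold change was -3.20 (adjusted p = 0.00621), and in pancreas over muscle it was -2.00 (adjusted p = 0.0480), by edgeR's quasi-likelihood test. Both pancreas libraries, at 0.886 and 0.935 CPM, were below both adipose libraries, at 10.4 and 6.45 CPM, and both muscle libraries, at 4.78 and 2.57 CPM. The pancreas values rest on 17.2 and 18.4 estimated fragments.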

How the results depend on the processing

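With 2 libraries a group, calls on moderate differences depend on single libraries. Leaving out each library gave 4 to 7 called members in adipose over MEFs, 4 to 8 in muscle, 4 to 8 in pancreas, 0 to 7 in muscle over adipose, 0 to 4 in pancreas over adipose and 0 to 1 in pancreas over muscle. Over all genes it gave 4321 to 9491, 3382 to 8987, 3506 to 8830, 51 to 5410, 8 to 5077 and 58 to 1205 calls in the same order. With only the groups compared, 8 members were called in muscle over MEFs and 8 in pancreas. Over all genes 8629 of 14080 and 8205 of 13986 were called there. With recovered reads 8 members were called in pancreas, beside 7689 of 14365 genes. In muscle over adipose 2 members were called with DESeq2, beside 1937 of 21643 genes, and 1 with recovered reads, beside 1933 of 14365. In pancreas over adipose 0 members were called by limma on log2(FPKM + 1), filtered or not, beside 872 of 12309 and 836 of 21784 genes. Recovered reads gave 4 members there, beside 3235 of 14365 genes. In pancreas over muscle 0 members were called with RLE, beside 540 of 14847 genes, and with all 3 limma settings, beside 388 to 453 genes. With only the groups compared 3 members were called there, beside 1752 of 13574 genes. Signs reversed for members not called. Tgfbr1 in pancreas over MEFs was 0.0042 (RLE), 0.068 (upper quartile), 0.057 (5 CPM filter) and 0.014 (only the groups compared), and -0.25 to 0.25 with a library left out. Tgfbr1 over MEFs was 0.53 in adipose with recovered reads, and -0.088 and -0.10 in muscle by limma with pseudocounts 1 and 0.1. Ltbp1 in adipose over MEFs was -0.035 (upper quartile), -0.055 (no filter), -0.010 (block), -1.11 and -1.14 (limma), and -0.37 to 0.32 with a library left out. Tgfb2 in adipose was -0.33 and -0.40 by limma, and Tgfb1 in pancreas -0.34 and -0.40, with -0.0044 to 0.14 on leaving out libraries. Tgfb1 in adipose ran from -3.04 to 0.58. Ltbp4 in pancreas over adipose was 0.21 by limma, 0.55 with recovered reads and -1.18 to 0.30 on leaving out libraries. Of called pathway genes, Smurf1 in adipose was -0.34 and -0.39 and Ski -0.0039 by limma. The cause was not tested. The filtered limma fit moved the median of all genes to -0.93, -0.59 and -0.47 over MEFs and left 19.3%, 27.3% and 31.6% of calls higher. Between tissues, 55.0%, 62.1% and 54.7% of calls were higher by limma on log2(FPKM + 1), against 38.2%, 36.7% and 41.8%. With the replicate block 6, 6, 5, 0, 1 and 1 members were called; deviations of same-numbered libraries correlated with r of -0.216 to 0.447 over the 6 comparisons, and whether the numbers pair libraries is not known.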

Other observations

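Other cell type markers ran low in most libraries. Mesothelial markers summed to 72.2 to 96.3 CPM in adipose, 5.45 to 7.72 in muscle and 33.8 to 64.9 in pancreas FAP+ cells, against 39.2 to 46.3 CPM in MEFs. Most of the adipose sum was Wt1, at 64.3 and 92.6 CPM, and most of the MEF sum was Krt19 and Msln. Against MEFs, adipose had 1 of the 5 markers called higher and 2 lower, the 2 being Msln (log2 -3.30) and Krt19 (-3.40). Muscle had 0 higher and 3 lower, and pancreas 3 higher and 1 lower. Pancreatic epithelial markers summed to 48.9 and 94.5 CPM in the pancreas libraries.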
